A study of Homo sapiens with 29 samples.

Results

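The 10 genes described here are the feedback inhibitors that ERK signaling switches on in its own path, together with 2 transcription factors of the PEA3 group: DUSP4, DUSP5, DUSP6, SPRY2, SPRY4, SPRED1, SPRED2, ETV4, ETV5 and PHLDA1. They were chosen by name out of 35579 genes, with earlier results of these data known. Each level is the sum of the gene's transcripts in TPM. TPM is the share of transcripts out of 1000000, corrected for transcript length so that levels of genes can be set side by side. Polyadenylated RNA was sequenced from PC9 cells, an EGFR-mutant human lung adenocarcinoma line that depends on EGFR signaling and is sensitive to the EGFR inhibitor erlotinib. The study asked how single tyrosines of the receptor tyrosine kinase AXL shape the response to AXL activation while EGFR is blocked.

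The 29 libraries came from 10 lines. Parental cells (PAR) carried their own AXL. AXL knockout cells (KO) were made from them by CRISPR-Cas9 with a guide RNA to the AXL kinase domain. The other 8 lines were KO cells given an AXL gene back by lentivirus. WT received the wild-type gene, KD a gene whose kinase is dead, and Y634F, Y643F, Y698F, Y726F, Y750F and Y821F a gene in which the named tyrosine is phenylalanine. Transduced lines were sorted populations that still held KO cells and made AXL from the introduced vector, so AXL dose varied among them. The paper reports that only a minority of the cells in transduced lines expressed AXL. It also reports less AXL activation in WT and the Y-to-F lines than in PAR. Each line was left untreated, given erlotinib at 1 µM (E), or given erlotinib at 1 µM with the AXL-activating antibody AF154 at 300 ng/mL (EA), each for 24 h. There was 1 library per line and treatment, giving 10 untreated, 10 E and 9 EA libraries, and KO with EA was not analysed here. Lines therefore served as the replicates of a treatment, no single line had a spread of its own, and the 8 lines other than KO and KD are called competent lines below.

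ERK is the last kinase of the RAS, RAF, MEK and ERK cascade below EGFR. Active ERK induces its own brakes: dual-specificity phosphatases (DUSP proteins) remove phosphate from ERK and related kinases, and Sprouty (SPRY) and Spred (SPRED) proteins hold back RAS and RAF. ETV4 and ETV5 are ETS-family factors that relay ERK output to other genes and are repressed by Capicua (CIC), which ERK relieves, and PHLDA1 is a pleckstrin-homology-like protein often read as a marker of MEK and ERK output. In EGFR-mutant lung cells these transcripts are commonly used to read how much ERK signaling remains under a kinase inhibitor.

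The library totals and markers set the frame for these values. Every library summed to 1000000 TPM, so the read depth behind a value is unknown and no counting interval can be given. AXL stood at 79.3 and 92.4 TPM in the 2 KO libraries, at 232 to 351 TPM in PAR, at 238 to 386 TPM in KD and at 217 to 852 TPM in the WT and Y-to-F lines. The epithelial keratin KRT8 was at 1249 TPM or more in every library, whereas the lung lineage factor NKX2-1 never passed 0.354 TPM. Of 6 markers of other cell types, the T cell marker CD3E was at 0 in every library, the leukocyte marker PTPRC reached 1.0 TPM and the collagen COL1A2 0.338 TPM at most. COL1A1, CD68 and PECAM1 were present. Summed over the 6 markers, the level was 64.8 to 97.9 TPM untreated, 81.0 to 96.2 TPM with E and 76.0 to 107 TPM with EA. Between untreated and E, COL1A1 rose by 1.03 on the log2 scale and CD68 and PECAM1 fell by 0.69 and 1.27, and their part in the results below was not tested. Mitochondrial transcripts took 17.4% of the TPM in PAR with E, 16.4% in PAR with EA and 17.4% in Y821F with EA, against 11.4% to 14.8% in the other 26 libraries.

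Promoter sequence was matched by symbol in RefSeq (GRCh38.p14) for 6 of the 10 genes, DUSP6, PHLDA1, SPRY2, SPRY4, SPRED1 and SPRED2, in 9 windows. DUSP4, DUSP5, ETV4 and ETV5 had no entry. The 250 bases before each start were searched on both strands for the octamers bound by CIC (TGAATGAA, TGAATGGA, TCAATGAA, TCAATGGA), the ETS core CCGGAA, the AP-1 sites TGAGTCA and TGACTCA, and the cyclic AMP response element TGACGTCA. A CIC octamer lay in 1 of the 9 windows, in DUSP6, against 3.18% of all 35116 windows of this length. The ETS core lay in 2 windows, of PHLDA1 and SPRY2, against 14.5% of all windows. None of the 9 windows held an AP-1 site (4.20% of all windows) or the cyclic AMP element (1.65%). These 3 sites are shown because CIC and ETS factors are the regulators named above, with the matched letters in capitals, 5′ to 3′ along the gene's strand.
DUSP6: cggagaatgtaTCCATTGAgacgctcgctg
PHLDA1: gaggagaggagtTTCCGGggctcgggtccg
SPRY2: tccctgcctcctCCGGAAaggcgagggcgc
All 3 genes are on the minus strand. The DUSP6 site, chr12:89352507-89352536, holds the octamer TCAATGGA on the opposite strand 24 bases before the RefSeq start, inside the first exon that GENCODE 29 gives DUSP6-201. The PHLDA1 site, chr12:76031848-76031877, also lies in an exon of that annotation, and the SPRY2 site, chr13:80341251-80341280, lies outside the exons of SPRY2. A match describes the letters and is no evidence of binding.

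Erlotinib lowered all 10 genes in all 10 lines. The changes below are differences of log2(TPM + 1), averaged over the 10 lines and tested with limma with the line as a block. They understate the fold of low genes. The 5 genes that averaged 10 TPM or more across the libraries (DUSP4, SPRED2, ETV4, ETV5 and PHLDA1) were tested among 9085 such genes. The other 5 (DUSP5, DUSP6, SPRY2, SPRY4 and SPRED1) were under that filter and were tested among the 14111 genes that averaged 1 TPM or more. DUSP5, SPRY2 and SPRED1 were above their filter in every library, whereas the other 7 genes passed it through their untreated level, so that the count of genes that fell is a description. Erlotinib reached most of the transcriptome: 42.6% of the 9085 genes and 36.3% of the 14111 genes fell at an adjusted p under 0.05. For all 10 genes the lowest untreated library also lay above the highest E library, which held for 17.2% of the 14111 genes. Their median change was -2.69, against 0.01 over the 14111 genes. The 10 genes were chosen with earlier results of these data known, so setting them beside all genes is a description too.

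**Figure D1:**
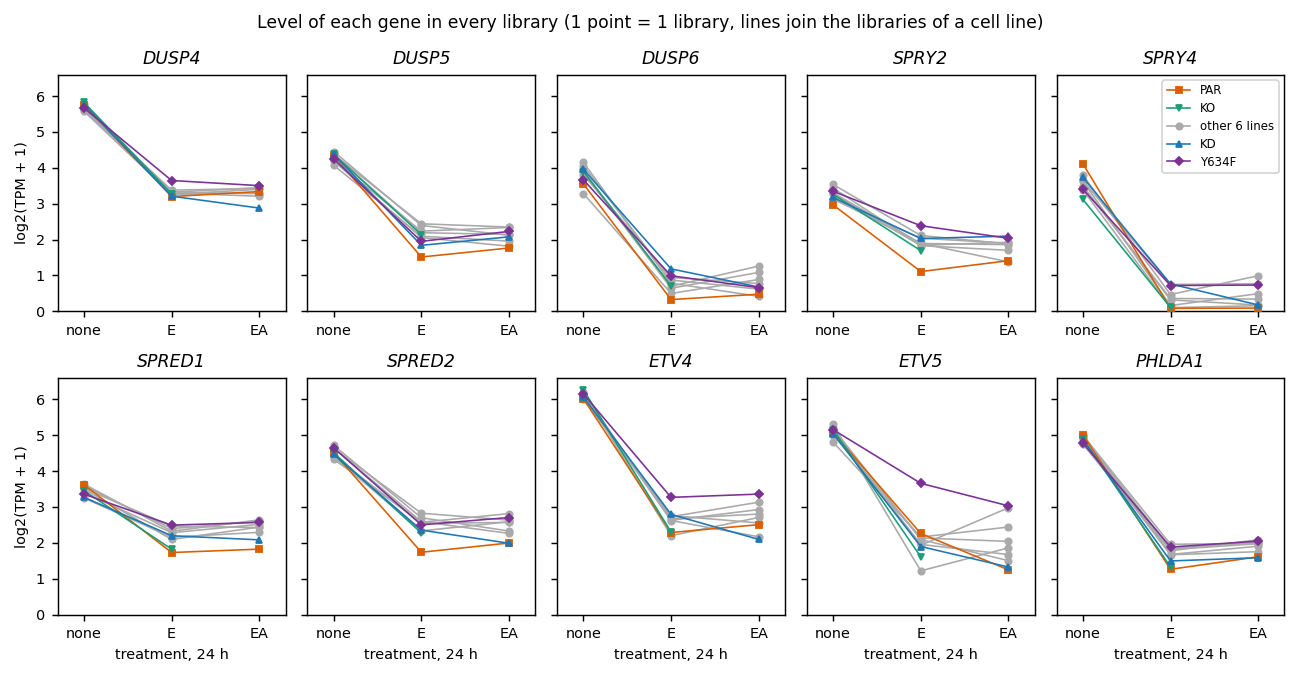
Level of each of the 10 genes as log2(TPM + 1) in untreated, E and EA libraries, 1 point per library, with lines joining the libraries of a cell line and PAR, KO, KD and Y634F picked out. Every gene dropped from untreated to E in every line and stayed low with EA, and Y634F lay above the other lines for ETV5 with E, at 11.6 TPM. Of that value, 5.25 TPM was assigned to a retained-intron transcript. Protein-coding ETV5 transcripts alone did not set Y634F apart with E.

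Among the phosphatases, DUSP6, the cytoplasmic phosphatase specific to ERK, came closest to vanishing. DUSP6 (chr12:89347232-89353271) measured 8.73 to 16.8 TPM untreated, with a median of 13.8, and 0.255 to 1.27 TPM with E, with a median of 0.680. Its mean fell 18.4-fold, from 13.3 to 0.723 TPM, a log2 change of -3.05 ± 0.09 (SE, n = 10 lines; limma adjusted p = 4.08e-12). PAR had the lowest DUSP6 with E and KD the highest. DUSP4 (chr8:29333064-29350668) encodes a nuclear phosphatase and was the most abundant of the 3. DUSP4 ran from 46.7 to 55.6 TPM untreated and from 8.18 to 11.5 TPM with E, with medians of 50.4 and 8.76, a change of -2.38 ± 0.06 (limma adjusted p = 8.91e-14). DUSP5 (chr10:110497838-110511544), a nuclear phosphatase specific to ERK, went from 15.8 to 20.9 TPM untreated down to 1.86 to 4.43 TPM with E, a change of -2.21 ± 0.09 (limma adjusted p = 6.21e-11). DUSP4 and DUSP5 kept nearly the same share of their untreated mean with E, 17.7% and 17.6%, against 5.45% for DUSP6. GENCODE 29 places an antisense gene, AC024909.2 (chr12:89351015-89353271), over the 5′ part of DUSP6, and others over ETV5 (ETV5-AS1), SPRY4 (SPRY4-AS1) and PHLDA1 (AC011611.3 and AC011611.4). Their levels were not analysed here. Whether strand was used in the quantification is not given in the sources used here, so without strand reads of such pairs could not be told apart.

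The Sprouty and Spred genes split into a steep and a shallow fall. SPRY4 (chr5:142310427-142326455), an inhibitor of receptor-driven RAS and RAF activation, measured 7.70 to 16.3 TPM untreated, with a median of 10.8, and 0.060 to 0.700 TPM with E, with a median of 0.266. Its mean fell 34.0-fold, the steepest of the 10 genes in TPM, and its change was -3.19 ± 0.12 (limma adjusted p = 3.28e-11). SPRY4 with E was under 0.1 TPM in PAR, KO and WT. SPRED2 (chr2:65310851-65432637), which brings neurofibromin to RAS, dropped from 19.1 to 25.2 TPM untreated to 2.33 to 6.08 TPM with E, a change of -2.08 ± 0.09 (limma adjusted p = 2.16e-11). SPRY2 (chr13:80335976-80340951) and SPRED1 (chr15:38252326-38357249) lost the least. SPRY2 kept 32.2% of its untreated mean, from 6.81 to 10.6 TPM untreated to 1.16 to 4.23 TPM with E, and changed by -1.37 ± 0.09 (limma adjusted p = 9.30e-09). SPRED1 kept 36.3%, from 8.49 to 11.4 TPM untreated to 2.31 to 4.62 TPM with E, and changed by -1.26 ± 0.10 (limma adjusted p = 4.32e-08).

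The PEA3 factors were among the most abundant of the 10 genes in untreated cells. ETV4 (chr17:43527844-43579620) measured 63.2 to 75.8 TPM untreated, with a median of 67.8, and 3.59 to 8.62 TPM with E, with a median of 5.28. ETV4 changed by -3.49 ± 0.09 (limma adjusted p = 2.59e-13) and had the rank 4 from the bottom among the changes of the 9085 genes. ETV5 (chr3:186046308-186110318) measured 26.9 to 38.4 TPM untreated, with a median of 33.0, and 1.33 to 11.6 TPM with E, with a median of 3.06. Its change was -3.00 ± 0.18 (limma adjusted p = 6.83e-10), with the widest spread between lines of the 10 genes (SD 0.67, against 0.17 for DUSP4). PHLDA1 (chr12:76025447-76033932) went from 25.8 to 31.4 TPM untreated to 1.4 to 2.88 TPM with E, a change of -3.24 ± 0.09 (limma adjusted p = 2.59e-13). The order of the genes changed with the drug. Untreated, ETV4 stood apart at the top, DUSP4 came next without overlapping it, and ETV5 and PHLDA1, which overlapped each other, lay below it. SPRED2, DUSP5, DUSP6, SPRY4, SPRED1 and SPRY2 followed in that order, apart from PHLDA1 but each overlapping the next. With E, DUSP4 had the highest mean, 9.0 ± 0.955 TPM (SD, n = 10), ahead of ETV4 at 5.30 ± 1.44 TPM, and their ranges overlapped through Y634F, whose ETV4 was 8.62 TPM. ETV4 overlaps DHX8 on the opposite strand (35.5 TPM untreated and 36.7 TPM with E), and ETV5 overlaps DGKG on its own strand (17.9 and 6.76 TPM), so the assignment of reads between these pairs is uncertain. DUSP6 at 0.723 ± 0.295 TPM and SPRY4 at 0.327 ± 0.262 TPM were at the bottom and overlapped too.

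No change of the 10 genes with AF154 passed the test, and all of them stayed far below their untreated level. The RNA was taken at 24 h, and earlier times were not sampled. The paper measured phosphorylated ERK protein minutes after AF154 and reports it among the kinases that AXL influenced most. Between EA and E in the 8 competent lines 0 of 10 passed, against 2.36% of the 9085 genes (171 higher and 43 lower, or 133 and 72 after median centring) and 0.475% of the 14111 genes. The 214 genes behind the first share became 10 without Y634F, 18 without Y643F, 55 without PAR, 55 without Y698F, 76 without Y750F, 94 without Y821F, 131 without WT and 9 with no block for the line. At an unadjusted p under 0.05 there were 2 of the 10 (SPRED1 and PHLDA1 in the fit to 14111 genes, where 16.9% of genes passed that mark). The interval of each difference gives the range of changes these lines leave possible on the log2(TPM + 1) scale. That scale understates the fold of DUSP6 and SPRY4. In these 8 lines their means were 0.665 and 0.312 TPM with E and 0.741 and 0.418 TPM with EA. For DUSP6, the EA minus E change was 0.05 with a 95% interval of -0.29 to 0.39. For DUSP4, the change was 0.03 with an interval of -0.12 to 0.17. For SPRY4, the change was 0.10 with an interval of -0.21 to 0.40. For ETV4, the change was 0.12 with an interval of -0.12 to 0.37. The widest was ETV5, at -0.08 with an interval of -0.53 to 0.37. The highest upper bound over the 10 genes was 0.42, for PHLDA1, and the smallest change with E was -1.26, for SPRED1. DUSP5 changed by -0.02, SPRED2 by 0.01 and SPRY2 by -0.13, none with an interval that left out 0. The unadjusted interval of SPRED1, 0.0025 to 0.34, left out 0. That of PHLDA1 was -0.04 to 0.42 in the fit to 9085 genes and 0.0014 to 0.37 in the fit to 14111 genes.

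**Figure D2:**
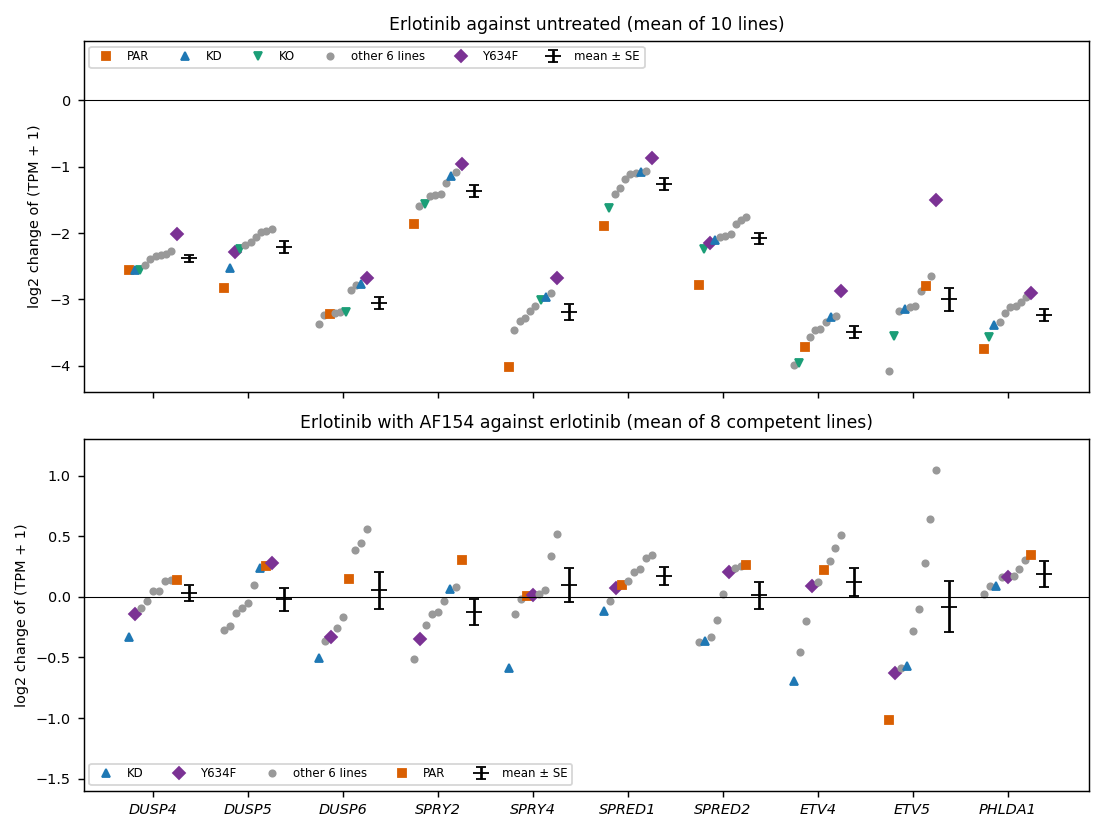
Change in log2(TPM + 1) of each gene in each line, for E against untreated (top, 10 lines) and EA against E (bottom, 9 lines), with the limma mean ± SE (of 10 lines above, and of the 8 competent lines below) beside the points. All points in the top panel lie below 0, between -4.08 and -0.86, whereas those in the bottom panel lie on both sides of 0.

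PHLDA1 and SPRED1 came nearest to a rise with AF154. PHLDA1 was higher with EA than with E in 8 of 8 competent lines, at 2.05 to 3.24 TPM against 1.4 to 2.88 TPM. A rise in every competent line was seen for 3.96% of the 9085 genes. Its change was 0.19 ± 0.11 (limma adjusted p = 0.336), and the two-sided exact sign-flip permutation test over lines gave p = 0.00781, the smallest it can give with 8 lines. SPRED1 was higher in 7 of 8, at 2.54 to 5.23 TPM against 2.31 to 4.62 TPM, with a change of 0.17 ± 0.08 (limma adjusted p = 0.287; exact sign-flip p = 0.0156). Both sign-flip values are single tests among 10 genes, and neither gene passed the adjusted test. Against untreated cells, in the 8 competent lines the changes from untreated to EA ran from -1.07 ± 0.11 for SPRED1 to -3.33 ± 0.11 for ETV4, all past the threshold, which 37.6% of the 9085 genes and 31.6% of the 14111 genes passed in that direction. The untreated and EA values of these lines overlapped for none of the 10 genes, and for 15.7% of the 14111 genes the untreated values were all higher. The E against untreated and EA against untreated comparisons share the untreated libraries.

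Cell cycle genes moved in the same libraries. All 6 genes of a proliferation list (MKI67, TOP2A, CCNB1, CDK1, MCM2 and PCNA) fell with E, with a median change of -1.53, and all 6 rose with EA against E, from 0.25 for CCNB1 to 0.42 ± 0.07 for PCNA (limma adjusted p = 0.0236), the sliding clamp of DNA replication. In the fit to 14111 genes 4 of the 6 passed, without Y634F 2 passed, without Y643F 2, without Y698F 3, without PAR 4, and with no block for the line 0. In those same libraries 0 of the 10 feedback genes and PEA3 factors passed, where 2.36% of the 9085 genes and 0.475% of the 14111 genes did. A direct test of one group of genes against the other was not made.

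The lines did not share 1 order of levels. In KD, whose AXL kinase is dead, 7 of the 10 genes were lower with EA than with E: DUSP4, DUSP6, SPRY4, SPRED1, SPRED2, ETV4 and ETV5. Of the 14111 genes, 48.6% were lower with EA than with E in KD. For DUSP4, DUSP6, SPRY4, SPRED1 and ETV4 the KD change lay below that of every competent line, which held for 10.5% of the 14111 genes. In KD, ETV4 was 5.92 TPM with E and 3.27 TPM with EA, SPRY4 was 0.700 and 0.132 TPM, and DUSP4 was 8.25 and 6.36 TPM. The mitochondrial share of the 2 KD libraries was 13.6% and 14.8%. Against the 8 competent lines, the KD change differed by -0.82 ± 0.28 for ETV4, by -0.68 ± 0.22 for SPRY4, by -0.36 ± 0.13 for DUSP4 and by -0.56 ± 0.36 for DUSP6. None passed (limma adjusted p of 1 for all 10 genes), and no gene passed in this comparison (0.00% of the 9085 and of the 14111 genes). At an unadjusted p under 0.05 limma had 324 of the 9085 genes (3.57%), with DUSP4 and ETV4 among them, and 548 of the 14111 genes (3.88%), with SPRY4 among them. KD is 1 line with 1 library per treatment, and the fit assumes that it varies like the others. Y821F was the competent line with the most genes lower in EA, 8 of 10, against 50.6% of the 14111 genes in that line. Its EA library was 1 of the 3 with the high mitochondrial share. In the other direction, PAR had 9 of the 10 genes higher with EA than with E, against 55.7% of the 14111 genes. Y698F had 8 higher, against 52.4%, and Y643F had 7, against 48.1%. Y634F, Y726F and Y750F had 6 higher each, and WT had 5. The E and EA libraries of PAR were the others with the high mitochondrial share. The part of that share in these values was not tested.

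PAR had the lowest level with E for 8 of the 10 genes (all but ETV4 and ETV5), yet it was lowest for SPRY2 alone among the untreated libraries. PAR was lowest with E for 33.8% of the 14111 genes and untreated for 21.0%. With EA it was lowest for DUSP5, SPRY4, SPRED1 and ETV5, 4 of 10 against 29.9% of genes. Its drop from untreated to E was the steepest of all lines for 7 of the 10 genes, against 31.7% of genes. SPRED2 was at 2.33 TPM in PAR with E and at 3.83 to 6.08 TPM in the other 9 lines. Its change with E was -2.78 in PAR and -2.24 to -1.76 in the others, a difference of -0.77 ± 0.19 (limma adjusted p = 0.0396), and 5.02% of the 9085 genes fell more in PAR by this test (2.29% of the 14111). The fit among 14111 genes gave an adjusted p of 0.0613 for it, and leaving mitochondrial genes out, whose share was 17.4% in this PAR library, gave 0.0551. Centring the libraries on their medians, which moved the median of all genes in this comparison from -0.12 to 0.07, gave SPRED2 -0.58 (limma adjusted p = 0.108). The differences of SPRY4 (-0.93 ± 0.30), SPRED1 (-0.70 ± 0.23) and DUSP5 (-0.68 ± 0.21) did not pass the adjusted test. Over all genes the split was 456 lower to 44 higher, and 97 to 114 after centring. Untreated, none of the 10 genes passed the test between PAR and the 9 knockout-derived lines, where 23.7% of the 9085 genes (1208 higher and 946 lower, or 933 and 1392 after median centring) and 17.8% of the 14111 genes passed. SPRY4 was the highest in PAR, at 16.3 TPM against 7.70 to 12.8 TPM (difference 0.59 ± 0.21, limma adjusted p = 0.0686).

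Y634F kept the most of several genes under E. It was the highest line with E for DUSP4, SPRY2, SPRED1, ETV4 and ETV5, a place it took for 11.6% of the 14111 genes, and it led for 0 of the 10 in untreated cells, against 10.4% of genes. Its E library had the lowest mitochondrial share of the E libraries, 12.3%, whose part in these values was not tested. ETV5 was at 11.6 TPM in Y634F with E and at 1.33 to 3.79 TPM in the other 9 lines. With EA, Y634F was again the highest for DUSP4, ETV4 and ETV5 (1555 of the 14111 genes, 11%). There ETV5 was 7.17 TPM, with Y698F next at 6.86 TPM. Of the 11.6 TPM of ETV5 with E, 5.25 TPM was assigned to ETV5-214, a retained-intron transcript that stood at 0 in 27 of the 29 libraries and at 7.47 TPM in untreated PAR. Without it Y634F had 6.35 TPM, still above the 1.33 to 3.79 TPM of the others. Counting protein-coding ETV5 transcripts alone, Y634F had 2.0 TPM with E and the others had 0.412 to 2.38 TPM, a range that takes Y634F in. With EA the coding transcripts of ETV5 gave 3.84 TPM in Y634F and 0.253 to 1.91 TPM in the others. There was 1 Y634F library per treatment, and the line was not fitted against the others.

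As a description of how the genes varied together between lines, the Pearson correlation of log2(TPM + 1) over the 45 gene pairs had a median of 0.05 across the 10 untreated libraries, 0.49 across the 10 E libraries and 0.56 across the 9 EA libraries. It was positive for 26, 42 and 44 pairs. Without PAR the medians were 0.08, 0.26 and 0.49, so that the E value rested in part on the low PAR library. The closest pair with E was SPRED2 with PHLDA1 (0.84), and the libraries share their total of 1000000 TPM and unknown depths. Over all 29 libraries, where treatment dominates, the 5 other genes most like DUSP6 were CD44, TNS4, FOXQ1, MAPK13 and TGM2, with correlations of 0.984, 0.984, 0.984, 0.983 and 0.982. After the mean of each treatment was subtracted the leading genes were DGKZ, ZDHHC5, ZNF592, GALNS and SNUPN, at 0.681 to 0.667, and the other 9 genes of the group reached 0.278 (SPRY2) to 0.518 (SPRED2) with DUSP6.

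Most of the larger transcripts of these genes fell with them. The table held 56 of their transcripts, and 27 took at least 5% of their gene's TPM. With E, 21 of the 27 were lower in all 10 lines, against 13.2% of the 45318 transcripts with such a share of any of the 14111 genes. For 19 of the 27 the lowest untreated library lay above the highest E library, against 7.59% of the 45318. DUSP4-201 carried 97.1% of DUSP4 and DUSP5-201 carried 98.4% of DUSP5. DUSP6 was split between DUSP6-201 (40.6%) and DUSP6-202 (29.7%), which fell from 5.49 ± 1.25 to 0.210 TPM and from 3.98 ± 1.37 to 0.236 TPM (SD, n = 10). ETV4-201 fell from 31.6 ± 5.92 to 1.20 TPM, and ETV5-201 from 20.2 ± 1.79 to 1.08 TPM. Of the 27, ETV5-209 alone had a higher mean with E. It is a retained-intron transcript and was lower with E in 2 of 10 lines, with means of 0.504 TPM untreated and 1.08 TPM with E. It made up 1.52% of ETV5 untreated and 28.8% with E. How kallisto, the authors' quantifier, divides reads among overlapping transcripts is an estimate, and values of 0 were frequent at these levels.

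**Figure D3:**
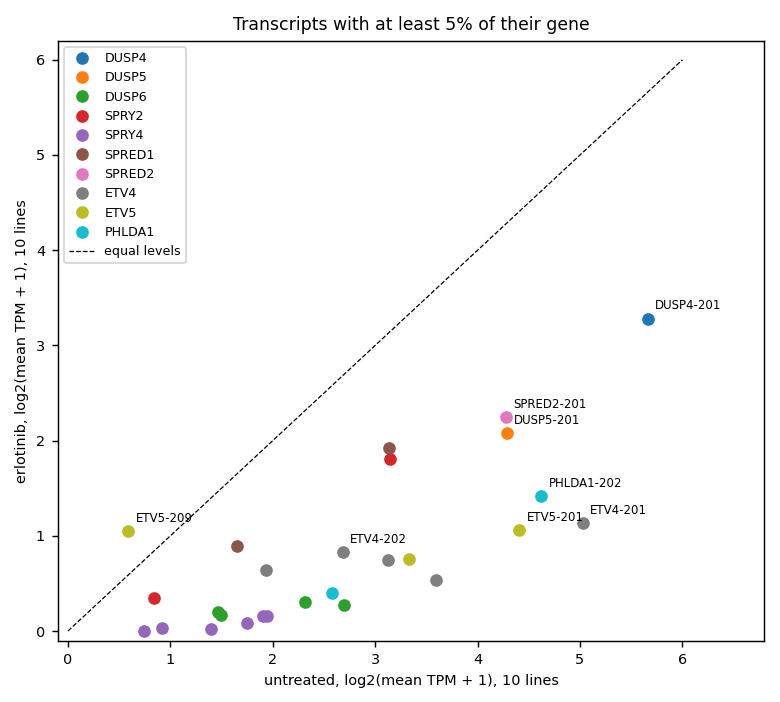
Mean level of the 27 transcripts with at least 5% of their gene, untreated (horizontal) against E (vertical), as log2(mean TPM + 1) over 10 lines, with colours for genes and a dashed line of equal levels. Only ETV5-209 lies above the dashed line, at 0.504 TPM untreated and 1.08 TPM with E.

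Close relatives of the 10 genes did not all move with them. Of 13 relatives listed by family, 11 had a mean of at least 1 TPM, of which 6 fell and 5 rose with E, with a median of -0.58. Among the 14111 genes 71.8% passed in either direction, 35.5% upward. All 6 dual-specificity phosphatases among the 11 passed, 4 upward. DUSP10, which acts on the stress kinases p38 and JNK, rose from 9.44 ± 2.16 to 26.7 ± 2.82 TPM (SD, n = 10), a change of 1.43 ± 0.07 (limma adjusted p = 1.50e-10). DUSP1, an immediate-early phosphatase of p38, JNK and ERK, rose from 7.37 to 10.7 TPM untreated to 12.8 to 26.4 TPM with E, a change of 1.21 ± 0.09. DUSP8 rose by 1.26 and DUSP16 by 0.50, both phosphatases of the stress kinases. The ERK phosphatase DUSP7 and the phosphatase DUSP2 fell by 1.38 and 1.68 on the log2 scale. The Sprouty and Spred relatives tested, SPRY1 and SPRED3, both fell, by 2.20 and 0.58. ETV1, the third PEA3 factor, fell from 2.58 ± 1.0 to 0.327 ± 0.251 TPM, a change of -1.41 ± 0.17. PHLDA2 fell by 2.17, whereas PHLDA3 rose by 0.30. DUSP9 and SPRY3 averaged under 1 TPM over the 29 libraries and were not tested. From untreated to E, the mean of DUSP9 fell from 1.17 to 0.338 TPM, with a fall in all 10 lines. The mean of SPRY3 rose from 0.511 to 0.892 TPM, with a rise in all 10 lines. With EA against E, 0 of the 11 passed the adjusted test. SPRY1 was higher with EA in 8 of 8 competent lines, with means of 0.844 TPM with E and 1.35 TPM with EA. DUSP8 was lower in 8 of 8, with means of 4.88 and 3.76 TPM.

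**Figure D4:**
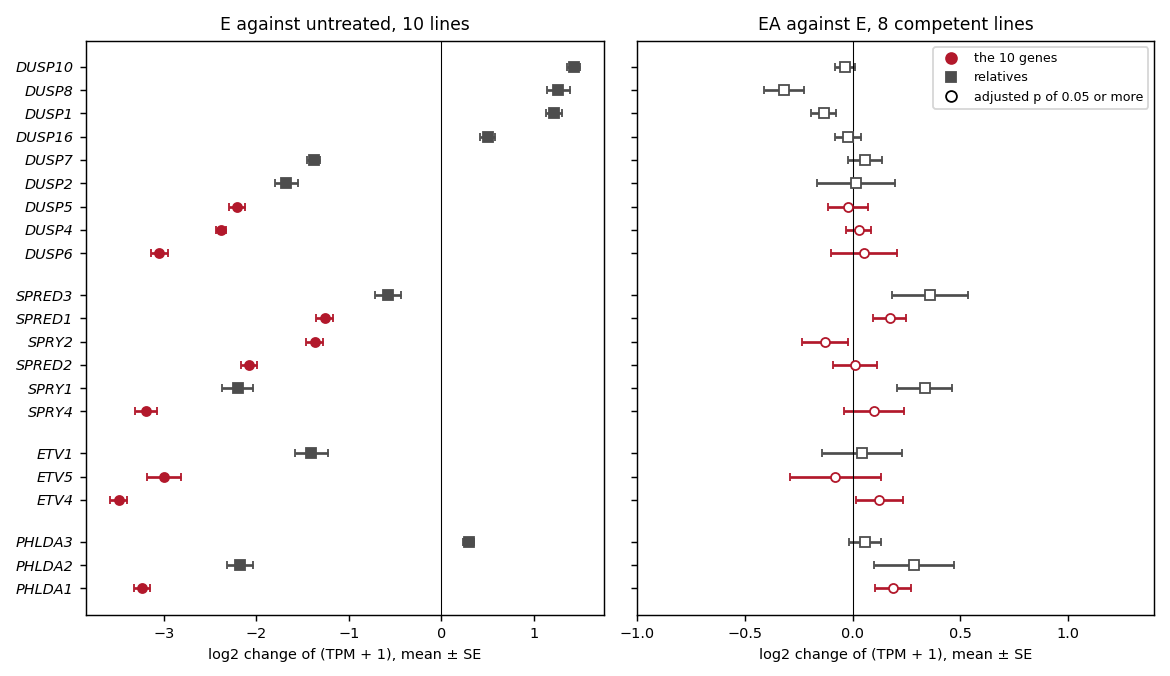
Change in log2(TPM + 1), mean ± SE, of the 10 genes (circles) and their 11 tested relatives (squares) by family, for E against untreated in 10 lines (left) and EA against E in the 8 competent lines (right); open symbols had an adjusted p of 0.05 or more in the fit to 14111 genes. On the left, DUSP10, DUSP8, DUSP1, DUSP16 and PHLDA3 lie to the right of 0 and all others to the left, and on the right every symbol is open.

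The genes of the cascade itself went both ways. Of 21 RAS-ERK cascade genes tested among the 14111, 10 fell and 8 rose with E, with a median of -0.08, where 36.3% of all genes fell and 35.5% rose. Among the 18 tested in the 9085, HRAS fell the most, by 0.88, and the adaptor GAB1 rose the most, by 0.58 ± 0.11. Of 11 genes of an ERK output list tested among the 14111, 9 fell and 1 rose, with a median of -1.04, against the same shares of all genes and their median of 0.01. The lists were not tested against each other. FOSL1, an AP-1 subunit stabilized by ERK, fell from 223 ± 19.8 to 18.3 ± 4.67 TPM, a change of -3.58 ± 0.09 (limma adjusted p = 1.34e-13), and the ephrin receptor EPHA4 rose by 1.32. With EA against E, FOSL1 changed by 0.33 ± 0.08 (limma adjusted p = 0.0560). It was higher in 8 of 8 competent lines, with means of 19.1 TPM with E and 24.0 TPM with EA. A rise in each of these lines was seen for 3.96% of the 9085 genes. Among 13 regulators of CIC and ETS factors, 4 rose and 4 fell, with a median of 0.07. CIC itself was at 35.0 ± 5.91 TPM untreated and 33.4 ± 3.56 TPM with E (change -0.05 ± 0.06, limma adjusted p = 0.434), and its partner ATXN1 rose by 0.89. TRIB2, a pseudokinase that docks the COP1 ubiquitin ligase, changed by -2.54 ± 0.09. SPRY1, ETV1, DUSP2, DUSP7, DUSP1, DUSP8, DUSP16, SPRED3, PHLDA3, CIC and TRIB2 are named here after their values were seen. Of 6 epithelial markers tested, 3 rose and 3 fell with E, from KRT18 (-0.64) to KRT7 (0.88). None of the cascade, ERK output, regulator or epithelial genes passed between EA and E. In bulk RNA, fewer cells with a transcript and less of it per cell cannot be told apart.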

How the data were processed

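TPM values per transcript were deposited for 29 libraries. Per the labels' processing notes the authors used kallisto and GRCh38, and the version and annotation are not given in the sources used here. TPM keeps no depth. Of 188753 transcripts, 169797 matched GENCODE 29 by identifier (97.0% to 97.4% of TPM) and were summed over 35579 genes. The test was limma 3.58.1 (R 4.3.3; lmFit and eBayes with trend) on log2(TPM + 1), with a block for the line and p-values adjusted by Benjamini-Hochberg (threshold 0.05), among the 9085 genes averaging 10 TPM or more. Genes under that filter were taken from the fit to the 14111 averaging 1 TPM or more. The comparisons were E against untreated (10 lines), EA against E and EA against untreated (8 competent lines), and KD or PAR against other lines, where the lone line is assumed to vary like the rest. Exact sign-flip tests were two-sided. Lines share a treatment but nothing says that cultures were repeated, so p-values measure the spread between lines. The block is the line, since a line's libraries share their cells; the labels carry no replicate numbers. Scripts were tested on simulated data. The 10 genes and all lists were chosen with earlier results of these data known. Named genes were the 10, the largest rise and fall of each list past the threshold, the 5 genes most like DUSP6, and transcripts with at least 5% of their gene. Tried as alternatives were each line left out, no block, median centring, quantile normalization, mitochondrial genes or noncoding transcripts left out, other filters, and 0.1 as pseudocount.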

Additional observations from a re-analysis of the deposited data

Results flagged for a closer look

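In 50 sets of values (each gene's untreated, E and EA levels over lines, and its E minus untreated and EA minus E changes), the gap between the extreme line and its neighbour was over the critical share of the range in 4. About 1 set in 20 passes this mark by chance, which is 2.5 of the 50 sets. Of these, 3 were Y634F with E: DUSP4 at 11.5 TPM (the other lines 8.18 to 9.39 TPM), ETV4 at 8.62 TPM (3.59 to 5.92 TPM) and ETV5 at 11.6 TPM (1.33 to 3.79 TPM). These 3 sets come from 1 library, so they are not independent of each other. The fourth was the SPRED2 change with E in PAR, -2.78 against -2.24 to -1.76 in the other lines.

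The SPRED2 response to E also differed between PAR and the 9 knockout-derived lines by the test of the difference, -0.77 (limma adjusted p = 0.0396). The PAR library with E had a mitochondrial share of 17.4%. With mitochondrial genes left out the difference was again -0.77 but did not pass (limma adjusted p = 0.0551), and after median centring it was -0.58 (limma adjusted p = 0.108).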

How the results depend on the processing

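The fall with E kept its direction and passed for each of the 10 genes under all alternatives that could be run, the mean changes running from -4.95 (SPRY4, pseudocount of 0.1) to -1.19 (SPRED1, without PAR). Without the replicate block, E against untreated gave 6811 genes against 7175 and EA against E gave 9 against 214. Of the 10 genes, those past the threshold in E against untreated, and likewise in EA against untreated, numbered 5 with the filter of 10 TPM, 10 with the filter of 1 TPM and 10 with no filter, and 0 with at least 10 TPM in every library, where none was tested. EA against E called 120 genes with the KD pair included, 361 with protein-coding transcripts, 67 with the filter of 1 TPM and 6 with no filter. With 1 line left out it called 10 (without Y634F) to 188, with 18 without Y643F, 55 without PAR, 55 without Y698F, 76 without Y750F, 94 without Y821F and 131 without WT. Leaving out 1 line gave 0 to 1 genes in the KD comparison. In the PAR response to E, 211 genes passed after median centring and 326 with mitochondrial genes left out, against 500. SPRED2 was the 1 gene of the 10 that passed there, and 0 passed after median centring, with mitochondrial genes left out, or with the filter of 1 TPM. With 1 line left out 0 to 1 passed, and SPRED2 was lost without Y698F, Y726F, Y750F or Y821F. Small values that had not passed changed sign. In EA against E these were DUSP4 at -0.032 with quantile normalization and -0.012 with the KD pair, and ETV4 at -0.029 with quantile normalization. SPRED2 was at -0.0046, -0.18, -0.016 and -0.031 with median centring, quantile normalization, protein-coding transcripts and the KD pair. The fit with the filter of 1 TPM was planned, but the alternatives run under that filter were added after the data were seen. Under that filter DUSP5 was at 0.0088 and DUSP6 at -0.0092 with the KD pair, and SPRY4 at -0.048 with protein-coding transcripts. With 1 line left out, DUSP5 ran from -0.062 to 0.016, DUSP6 from -0.020 to 0.11, SPRED2 from -0.024 to 0.066 and ETV5 from -0.24 to 0.053. In PAR untreated, median centring gave DUSP4 -0.017 and DUSP5 -0.042, leaving out mitochondrial genes gave SPRED2 0.014, and with 1 line left out SPRED2 ran from -0.037 to 0.011 and SPRY4 from 0.54 (limma adjusted p = 0.0492, without KO) to 0.63. In the PAR response, median centring gave DUSP6 0.015. The causes were not tested.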
